A study of Trichoderma atroviride with 42 samples.

Results

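Tatro_008185-T1, Tatro_000363-T1 and Tatro_000302-T1 are genes of the filamentous fungus Trichoderma atroviride whose deposited product text reads extracellular membrane protein with a CFEM domain. They are 3 of the 5 genes with that text among 11786 genes counted, and they were picked by their listed identifiers. The text stands in a column of the authors' table for 30 min after mechanical injury, which lists only genes with a false discovery rate of at most 0.005 (largest listed value 0.004999). A gene therefore had to differ from the untreated mycelium at 30 min after injury to carry the text. Every comparison that uses the 30 min injury libraries is for this reason described here without a test. The comparisons of other groups with untreated mycelium were tested, but they share the untreated libraries with that selection.

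The CFEM domain is a cysteine-rich domain found in fungal proteins that are secreted, anchored in the membrane or built into the cell wall. In the yeast Candida albicans, CFEM proteins of the wall bind haem and pass it inward as an iron source, and in the rice pathogen Magnaporthe oryzae the surface receptor Pth11 carries a CFEM domain. No source used here gives the roles of the 3 Trichoderma genes. Their sequences and genome positions were not analysed here, and since gene lengths were not used either, levels are compared between groups and never between genes.

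RNA was sequenced from wild-type mycelium grown from conidia on cellophane over potato dextrose agar, at 27 °C in darkness for 36 h. It was cut with a sterile scalpel (mechanical injury, MI), or larvae of Drosophila melanogaster (Dm) or the collembola Orthonychiurus folsomi (Of, a soil arthropod) were left on it for 10 min in the dark and then removed with forceps. It was frozen 30 min, 90 min, 4 h or 8 h later. Untreated plates, opened for 2 min in the dark, gave an early control (CT0, labelled time 0 but placed at 30 min by the protocol) and a late control at 8 h (CT8). There were 14 groups of 3 biological replicates, each pooled from 3 technical ones, and each library mixes all cells of a plate, cut or grazed and not. In such bulk samples, fewer cells of a type and less RNA per cell cannot be told apart.

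Levels are in CPM, read counts scaled to a common library total with TMM factors, and are given as mean ± SD over 3 libraries. Total counts ran from 1152096 (CT0 replicate 2) to 5398093 (MI_4h replicate 2), and the next lowest were Dm_90min replicate 3 (1443447), Of_30min replicate 1 (1484486) and Dm_8h replicate 2 (1607248). A single gene, Tatro_002410-T1, took 16.9% of the counts of CT0 replicate 2, 12.5% of Of_30min replicate 1 and 14.9% of Dm_8h replicate 2. In Dm_90min replicate 3, 111 of the 9193 genes tested lay at least 4-fold below both other libraries of the group. The lowest counts behind any value of a member were 8 reads for Tatro_000363-T1 in Dm_90min replicate 3 and 10 reads for Tatro_008185-T1 in CT0 replicate 2. Adjusted p is from edgeR's quasi-likelihood test over all 9193 genes with Benjamini-Hochberg adjustment, called at 0.05, and log2 changes carry their SE.

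**Figure D1:**
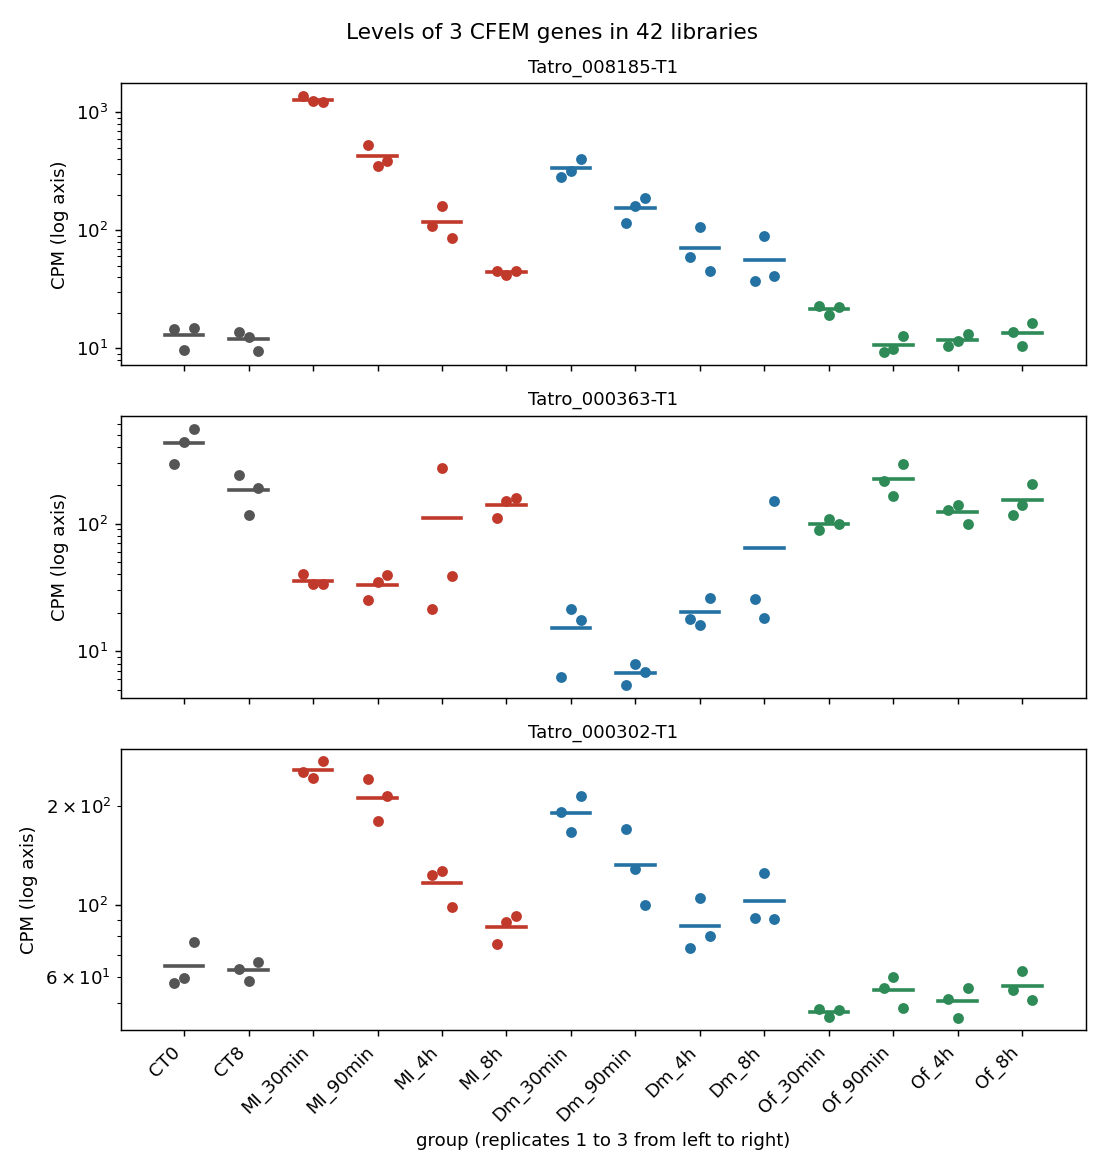
Level of each of the 3 genes in all 42 libraries, in CPM on a log axis, with replicates 1 to 3 of each group from left to right (points) and the group mean (bars). Tatro_008185-T1 and Tatro_000302-T1 were highest at 30 min after injury (1277 and 258 CPM), and Tatro_000363-T1 was highest in CT0 (429 CPM) and lowest at 90 min after the larvae (6.72 CPM).

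Tatro_008185-T1 was low in untreated mycelium, higher after injury and after the larvae, and did not pass the test at any time after the collembola. The CT0 libraries held 14.5, 9.60 and 14.8 CPM and the CT8 libraries 13.9, 12.6 and 9.47 CPM. At 30 min after injury the 3 libraries held 1369, 1244 and 1217 CPM. This group, used for the choice of the gene, stood apart from all others, 91.4-fold above CT0 in the fit (log2 6.51 ± 0.30, no test).

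At 90 min after injury the gene was still at 529, 354 and 391 CPM, 30.5-fold above CT0 (log2 4.93 ± 0.29, edgeR adjusted p = 3.2e-15). At 4 h the libraries held 108, 159 and 85.9 CPM, 9.87-fold above CT8 (log2 3.30 ± 0.28, edgeR adjusted p = 7.2e-11). At 8 h they held 45.6, 41.7 and 45.5 CPM, 3.70-fold above CT8 (log2 1.89 ± 0.30, edgeR adjusted p = 1.3e-05). No injured library overlapped its control at any time. The level fell between 90 min and 4 h (log2 -1.85 ± 0.23, edgeR adjusted p = 1.8e-07) and again between 4 and 8 h (log2 -1.42 ± 0.24, edgeR adjusted p = 1e-04).

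After the larvae the same gene held 284, 319 and 402 CPM at 30 min, 23.9-fold above CT0 (log2 4.58 ± 0.29, edgeR adjusted p = 1.2e-14). The 90 min libraries held 115, 162 and 188 CPM, 10.9-fold above CT0 (log2 3.44 ± 0.29, edgeR adjusted p = 2.4e-11). At 4 h it held 58.9, 107 and 45.5 CPM (log2 2.53 ± 0.29, edgeR adjusted p = 7.9e-08). All libraries of these groups lay above their control. At 8 h they held 37.0, 89.1 and 40.7 CPM (log2 2.12 ± 0.31, edgeR adjusted p = 1.4e-06), with replicate 2 the highest, as at 4 h. The level fell from 30 to 90 min (log2 -1.14 ± 0.23, edgeR adjusted p = 0.00045) and from 90 min to 4 h (log2 -1.14 ± 0.24, edgeR adjusted p = 0.00057). From 4 to 8 h the difference was -0.41 ± 0.26 and did not pass (edgeR adjusted p = 0.38), while it passed without the 4 libraries of lowest depth (-0.79, edgeR adjusted p = 0.047) and was 0.024 without Dm_4h replicate 2.

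After the collembola, Tatro_008185-T1 held 22.9, 19.2 and 22.2 CPM at 30 min. These libraries lay above all 3 of CT0, but the difference did not pass (log2 0.61 ± 0.35, 95% interval -0.12 to 1.33, edgeR adjusted p = 0.3). By 90 min it held 9.22, 9.82 and 12.7 CPM, at 4 h 10.4, 11.6 and 13.1 CPM, and at 8 h 13.8, 10.4 and 16.3 CPM. These 3 later groups overlapped their control, with log2 differences of -0.38 ± 0.38, -0.02 ± 0.35 and 0.17 ± 0.35. Their 95% intervals reached at most 0.88, below the smallest change seen after injury or larvae.

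Ordered by mean, the levels of Tatro_008185-T1 ran from MI_30min (1277 ± 81.1 CPM) through MI_90min (425 ± 92.4), Dm_30min (335 ± 60.4), Dm_90min (155 ± 37.1), MI_4h (118 ± 37.6), Dm_4h (70.6 ± 32.6), Dm_8h (55.6 ± 29.1), MI_8h (44.3 ± 2.21) and Of_30min (21.4 ± 1.95) down to the other 5 groups. Those 5 groups, both controls and the 3 later collembola groups, had means of 10.6 to 13.5 CPM and overlapped each neighbour in that order. Gaps without overlap lay between MI_30min and MI_90min, between Dm_30min and Dm_90min, between MI_8h and Of_30min, and below Of_30min. All other neighbours overlapped.

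Tatro_000302-T1 was also highest at 30 min after injury and rose after injury and after the larvae, in a narrower range than Tatro_008185-T1. CT0 held 57.8, 59.6 and 76.7 CPM and CT8 held 63.7, 58.5 and 67.0 CPM. At 30 min after injury it held 255, 244 and 274 CPM (log2 1.97 ± 0.16 against CT0, no test). That group lay above every other library.

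At 90 min after injury Tatro_000302-T1 held 242, 181 and 214 CPM, 3.25-fold above CT0 (log2 1.70 ± 0.16, edgeR adjusted p = 7.4e-11). At 4 h it held 124, 126 and 98.5 CPM (log2 0.88 ± 0.15, edgeR adjusted p = 4.8e-05), and at 8 h 75.7, 88.7 and 92.2 CPM (log2 0.44 ± 0.15, edgeR adjusted p = 0.036). All 3 groups lay above their control without overlap. The small 8 h rise did not pass against CT0 in place of CT8 (log2 0.38, edgeR adjusted p = 0.084), nor when replicate 1 or 2 of CT8 or replicate 2 or 3 of MI_8h was left out (log2 0.38 to 0.44, edgeR adjusted p up to 0.13).

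After the larvae, Tatro_000302-T1 held 191, 167 and 215 CPM at 30 min, 2.91-fold above CT0 (log2 1.54 ± 0.16, edgeR adjusted p = 6.3e-10). The 90 min libraries held 169.9, 128 and 99.6 CPM (log2 1.05 ± 0.16, edgeR adjusted p = 2.7e-06). At 4 h it held 73.5, 105 and 80.4 CPM (log2 0.44 ± 0.16, edgeR adjusted p = 0.041). None of these groups overlapped its control. At 8 h it held 91.2, 125 and 90.3 CPM (log2 0.67 ± 0.16, edgeR adjusted p = 0.0015). The 4 h rise was lost against CT0 (log2 0.39, edgeR adjusted p = 0.13), with library totals as the scale (0.43, edgeR adjusted p = 0.072) and without a filter on low genes (0.43, edgeR adjusted p = 0.059). It was also lost without any 1 of the 3 CT8 libraries (0.38 to 0.48) and without Dm_4h replicate 2 (0.28, edgeR adjusted p = 0.27).

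After the collembola, Tatro_000302-T1 held 48.1, 45.5 and 47.5 CPM at 30 min, below all CT0 libraries, and the difference did not pass (log2 -0.48 ± 0.18, edgeR adjusted p = 0.074). It passed with library totals as the scale (log2 -0.65, edgeR adjusted p = 0.019), a scale that moved the median of all genes in that comparison by -0.17, and when only the groups compared were fitted (log2 -0.49, edgeR adjusted p = 0.039). At 90 min it held 55.8, 60.2 and 48.2 CPM, at 4 h 51.3, 45.2 and 55.4 CPM, and at 8 h 54.9, 62.6 and 51.2 CPM. None of these passed, with log2 differences of -0.26, -0.32 and -0.16, but that of 4 h passed when only the groups compared were fitted (-0.33, edgeR adjusted p = 0.04). The 4 h libraries lay just below those of CT8, while those of 90 min and 8 h overlapped their control.

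Ordered by mean, Tatro_000302-T1 ran from MI_30min (258 ± 15.01 CPM), MI_90min (212 ± 30.6), Dm_30min (191 ± 23.9), Dm_90min (133 ± 35.4), MI_4h (116 ± 15.4), Dm_8h (102 ± 19.9), Dm_4h (86.2 ± 16.5) and MI_8h (85.5 ± 8.68) to CT0 (64.7 ± 10.5), CT8 (63.0 ± 4.28) and the 4 collembola groups (47.0 to 56.2). Only MI_30min stood clear of its neighbour. Every other neighbouring pair overlapped.

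Tatro_000363-T1 was highest in CT0 and was lower after injury and after the larvae. CT0 held 296, 437 and 554 CPM and CT8 held 239, 117 and 191 CPM. The control groups did not overlap, yet the difference did not pass (log2 -1.23 ± 0.50, 95% interval -2.25 to -0.21, edgeR adjusted p = 0.12). Since the early treatments were set against the higher control, their changes are also given against both controls together.

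At 30 min after injury Tatro_000363-T1 held 39.9, 33.4 and 33.4 CPM, 12.1-fold below CT0 (log2 -3.60 ± 0.57, no test). The 90 min libraries held 25.0, 34.9 and 39.5 CPM, 13.1-fold lower (log2 -3.71 ± 0.57, edgeR adjusted p = 2.8e-06). Against the mean of both controls the 90 min change was -3.09 (edgeR adjusted p = 7.8e-06). All 6 early injured libraries lay below every untreated library.

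The 3 libraries of 4 h after injury held 21.2, 275 and 38.9 CPM, and replicate 2 alone was at the level of untreated mycelium. The difference from CT8 did not pass (log2 -0.70 ± 0.50, edgeR adjusted p = 0.32), but without replicate 2 it was -2.60 (edgeR adjusted p = 0.00012). Without replicate 1 it was -0.21 (edgeR adjusted p = 0.82). At 8 h the libraries held 111, 152 and 158 CPM and overlapped CT8 (log2 -0.38 ± 0.50, edgeR adjusted p = 0.63). Against CT0 both late times passed (-1.93 at 4 h and -1.61 at 8 h, edgeR adjusted p = 0.006 and 0.02), and against both controls 4 h passed (-1.32, edgeR adjusted p = 0.03). The rise from 90 min to 4 h (log2 1.77 ± 0.56, edgeR adjusted p = 0.015) also rested on that library and was -0.12 without it (edgeR adjusted p = 0.89). Without MI_90min replicate 1 it was 1.58 (edgeR adjusted p = 0.089). From 4 to 8 h the difference was 0.32 ± 0.50, and without MI_4h replicate 2 it was 2.23 (edgeR adjusted p = 0.0021).

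After the larvae Tatro_000363-T1 reached its lowest levels. At 30 min it held 6.23, 21.6 and 17.6 CPM, 28.9-fold below CT0 (log2 -4.85 ± 0.62, edgeR adjusted p = 9.8e-08). At 90 min it held 5.43, 7.93 and 6.81 CPM, from 25, 31 and 8 reads, 64.3-fold below CT0 (log2 -6.01 ± 0.73, edgeR adjusted p = 5.6e-08). Against the mean of both controls these changes were -4.24 (edgeR adjusted p = 1.7e-07) and -5.39 (1.1e-07). At 4 h it held 18.0, 16.2 and 26.3 CPM, 8.80-fold below CT8 (log2 -3.14 ± 0.60, edgeR adjusted p = 0.00022). None of these 9 libraries overlapped a control library.

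At 8 h after the larvae the libraries held 25.6, 18.1 and 150.2 CPM, and replicate 3 alone lay within the range of CT8. Replicate 3 was also the deepest of the group, with 4332056 counts against 2479450 and 1607248 in replicates 1 and 2. Tatro_002410-T1 took 6.20%, 14.9% and 0.258% of the counts of replicates 1 to 3. At least 4-fold below both other libraries lay 30, 28 and 4 genes. The difference from CT8 did not pass (log2 -1.34 ± 0.52, edgeR adjusted p = 0.058). It was -3.02 without replicate 3 (edgeR adjusted p = 5e-04), -1.56 without CT8 replicate 2 (edgeR adjusted p = 0.046) and -0.94 without replicate 1 (edgeR adjusted p = 0.26). Without the 4 libraries of lowest depth, replicate 2 among them, it was -0.957 (edgeR adjusted p = 0.24). It passed against both controls together (-1.95, edgeR adjusted p = 0.0023) and with a replicate block (-1.50, edgeR adjusted p = 0.03).

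After the collembola, Tatro_000363-T1 held 89.9, 108 and 98.7 CPM at 30 min, below all CT0 libraries (log2 -2.11 ± 0.53, 4.31-fold lower, edgeR adjusted p = 0.0089). Against CT8 this was -0.88 (edgeR adjusted p = 0.43) and against the mean of both controls -1.49 (edgeR adjusted p = 0.056), so the call rests on CT0. By 90 min it held 215, 165 and 295 CPM, all below CT0, and the difference did not pass (log2 -0.93 ± 0.50, edgeR adjusted p = 0.28), but it did with only these groups fitted (-0.93, edgeR adjusted p = 0.024) and was 0.30 against CT8. Those of 4 h (129, 141 and 98.6 CPM) and 8 h (117, 141 and 204 CPM) overlapped CT8 (log2 -0.58 and -0.26, not past the test). The 4 h difference passed against CT0 (-1.81, edgeR adjusted p = 0.015).

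Ordered by mean, Tatro_000363-T1 ran from CT0 (429 ± 129 CPM), the one group clear of its neighbour, through Of_90min (225 ± 65.5), CT8 (182 ± 61.5), Of_8h (154 ± 44.6), MI_8h (140.4 ± 25.3), Of_4h (123 ± 21.8), MI_4h (112 ± 142), Of_30min (98.8 ± 9.01), Dm_8h (64.6 ± 74.2), MI_30min (35.6 ± 3.79), MI_90min (33.1 ± 7.41), Dm_4h (20.2 ± 5.41) and Dm_30min (15.1 ± 7.97) to Dm_90min (6.72 ± 1.25). In MI_4h and Dm_8h the SD exceeded the mean, and the highest library was 12.9 and 8.31 times the lowest. The next widest group of the same gene, Dm_30min, spanned 3.46-fold.

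**Figure D2:**
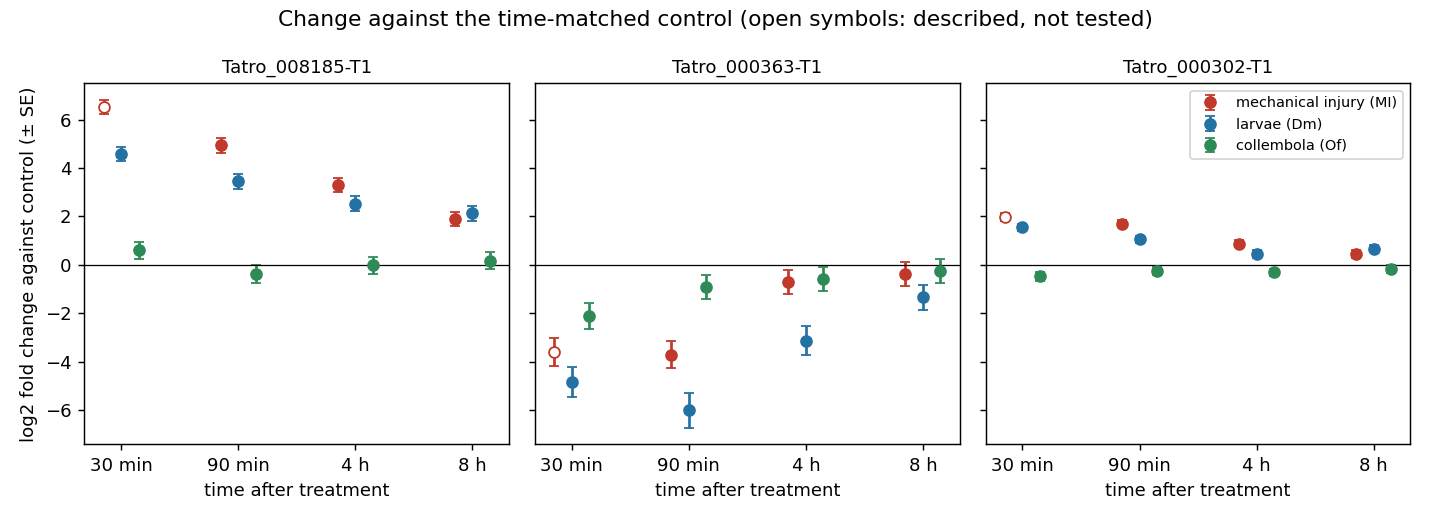
Log2 fold change of each of the 3 genes against its control (CT0 for 30 and 90 min, CT8 for 4 and 8 h), with SE bars, by time after treatment. The open symbols at 30 min after injury have no test. Tatro_008185-T1 went from 6.51 to 1.89 after injury and from 4.58 to 2.12 after the larvae, while all its collembola values lay between -0.38 and 0.61.

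Set against all genes, 3 of 3 members passed the test at 90 min after injury, where 39.5% of the 9193 genes passed. At 4 h and at 8 h after injury 2 of 3 passed, against 24.4% and 22.5% of all genes. After the larvae 3 of 3 passed at 30 min (39.5% of all genes), at 90 min (33.9%) and at 4 h (20.5%), and 2 of 3 at 8 h (24.9%). With 3 genes chosen because they differed at 30 min after injury, these counts say little beyond the single values. In that injury comparison itself 46.3% of all genes passed, and the choice of members fixed their count.

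After the collembola 1 of 3 members passed at 30 min, where 9.90% of all genes passed. In edgeR's test none passed at 90 min (5.47% of all genes), 4 h (0.207%) or 8 h (0%). In these 3 comparisons 0 members had an unadjusted p under 0.05 and 0 passed in DESeq2. Over all genes 1908, 938 and 118 had an unadjusted p under 0.05 at 90 min, 4 h and 8 h. DESeq2 called 622, 57 and 0 genes at these times.

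At 90 min Tatro_008185-T1 was 2.80-fold lower after the larvae than after injury (155 against 425 CPM, log2 -1.49 ± 0.23, edgeR adjusted p = 4.4e-05) with no overlap. Tatro_000302-T1 was 1.57-fold lower (133 against 212 CPM, log2 -0.65 ± 0.15, edgeR adjusted p = 0.0035), a call lost when only these groups were fitted (log2 -0.66, adjusted p = 0.17). Tatro_000363-T1 held 6.72 against 33.1 CPM without overlap and did not pass (log2 -2.30 ± 0.81, edgeR adjusted p = 0.056). It passed in DESeq2 (-2.30, adjusted p = 0.0075), with library totals (-2.36, edgeR adjusted p = 0.046) and with only these groups fitted (-2.30, edgeR adjusted p = 0.002). The background was 11.7% of all genes. At 30 min, without a test, the larval libraries of all 3 genes lay below the injured ones without overlap (44.5% of all genes had groups without overlap), by 1.93, 1.26 and 0.43 on the log2 scale for Tatro_008185-T1, Tatro_000363-T1 and Tatro_000302-T1.

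At 4 h 2 of 3 members differed between larvae and injury, being lower after the larvae (6.11% of all genes passed), and the libraries of both groups overlapped for each. Tatro_008185-T1 differed by -0.77 ± 0.24 (edgeR adjusted p = 0.044), which was lost in DESeq2 (-0.75, adjusted p = 0.093), with only these groups fitted (-0.78, edgeR adjusted p = 0.1) and without MI_4h replicate 1 or 2 or Dm_4h replicate 1 or 3. With 1 library left out it ranged from -1.19 (without Dm_4h replicate 2) to -0.49 (without MI_4h replicate 2). Tatro_000363-T1 differed by -2.44 ± 0.60 (edgeR adjusted p = 0.0099), but by -0.54 without MI_4h replicate 2 (edgeR adjusted p = 0.63) and by -2.36 without Dm_4h replicate 1 (edgeR adjusted p = 0.062). The call was also lost with only these groups fitted (-2.43, edgeR adjusted p = 0.074). Tatro_000302-T1 differed by -0.44 ± 0.15 and did not pass (edgeR adjusted p = 0.078), but it passed without MI_4h replicate 3 (-0.55, edgeR adjusted p = 0.042) or Dm_4h replicate 2 (-0.59, edgeR adjusted p = 0.024).

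At 8 h none of the 3 genes differed past the threshold between larvae and injury in edgeR (1.51% of all genes passed) or DESeq2. None had an unadjusted p under 0.05, while 1251 of all genes had. The 95% intervals of larvae minus injury were -0.30 to 0.77 for Tatro_008185-T1, -2.03 to 0.12 for Tatro_000363-T1 and -0.08 to 0.55 for Tatro_000302-T1 on the log2 scale. For Tatro_008185-T1 the value turned from 0.23 to -0.17 without Dm_8h replicate 2. Without Dm_8h replicate 3 the difference of Tatro_000363-T1 was -2.64 (edgeR adjusted p = 0.0099), and without Dm_8h replicate 1 it was -0.574 (edgeR adjusted p = 0.75). Changes of the larvae-injury difference from 90 min to 4 h and from 4 to 8 h passed for none of the 3 in edgeR or DESeq2. In edgeR 3.05% and 2.68% of all genes passed. An unadjusted p under 0.05 was found for 1 and 2 members, and for 1710 and 1516 of all genes. For Tatro_008185-T1 these changes were 0.71 ± 0.33 (edgeR adjusted p = 0.23) and 1.006 ± 0.35 (0.13). The latter passed without Dm_4h replicate 2 (1.42, edgeR adjusted p = 0.014), and that of Tatro_000302-T1 passed without MI_4h replicate 3, Dm_4h replicate 2 or Dm_8h replicate 3 (0.79, 0.82 and 0.76).

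The larvae and the collembola differed for 3 of 3 members at 30 min (41.4% of all genes), 90 min (34.4%) and 4 h (26.2%), and for 2 of 3 at 8 h (22.0%). Tatro_008185-T1 was 15.7-fold higher after the larvae at 30 min (log2 3.98 ± 0.28, edgeR adjusted p = 1.1e-13) and 14.2-fold higher at 90 min (log2 3.83 ± 0.31, edgeR adjusted p = 2.2e-11). At 4 and 8 h it was higher by 2.55 ± 0.30 and 1.96 ± 0.31 (edgeR adjusted p = 4.9e-08 and 8.6e-06). The libraries did not overlap at any of the 4 times. Tatro_000302-T1 was higher by 2.03, 1.31, 0.76 and 0.84, again with no overlap (largest edgeR adjusted p = 0.00047).

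Tatro_000363-T1 was 6.71-fold lower after the larvae than after the collembola at 30 min (log2 -2.75 ± 0.63, edgeR adjusted p = 0.00057). At 90 min it was 33.7-fold lower (log2 -5.08 ± 0.73, edgeR adjusted p = 1.3e-06), and at 4 h 5.90-fold lower (log2 -2.56 ± 0.61, edgeR adjusted p = 0.0016). These comparisons use no control library. At 8 h the groups overlapped and the difference did not pass (log2 -1.08 ± 0.53, edgeR adjusted p = 0.14), while without Dm_8h replicate 3 it was -2.77 (edgeR adjusted p = 0.0016). Without Dm_8h replicate 1 it was -0.695 (edgeR adjusted p = 0.44).

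The change of the larvae-collembola difference between neighbouring times passed for no member in edgeR. Background shares were 1.93% from 30 to 90 min, 12.9% from 90 min to 4 h and 0.0979% from 4 to 8 h. From 90 min to 4 h all 3 had an unadjusted p under 0.05 and 2 passed in DESeq2. Over all genes 2462 had such a p at this step, and DESeq2 called 1252. Tatro_008185-T1 moved by -1.28 ± 0.45 (edgeR adjusted p = 0.055, and -1.29 with adjusted p = 0.033 in DESeq2) and Tatro_000363-T1 by 2.52 ± 1.00 (edgeR adjusted p = 0.092, and 2.45 with adjusted p = 0.048 in DESeq2). From 30 to 90 min 2 members, and from 4 to 8 h 0, had an unadjusted p under 0.05, and 0 passed in DESeq2 in either. Of all genes 1341 and 819 had such a p, and 274 and 24 passed in DESeq2. With 1 library left out, the change from 90 min to 4 h passed for Tatro_008185-T1 without Dm_90min replicate 1 (-1.48) or Dm_4h replicate 2 (-1.69), and for Tatro_000302-T1 without Dm_90min replicate 3 (-0.72) or Dm_4h replicate 2 (-0.71). The change of Tatro_000302-T1 from 30 to 90 min passed without Dm_90min replicate 1 (-0.96, edgeR adjusted p = 0.018).

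Injury and the collembola differed for 3 of 3 members at 90 min (43.3% of all genes), and for 2 of 3 at 4 h (33.6%) and at 8 h (21.3%). Tatro_008185-T1 was 39.7-fold higher after injury at 90 min (log2 5.31 ± 0.30, edgeR adjusted p = 8.9e-16), and higher by 3.32 ± 0.28 at 4 h and 1.72 ± 0.30 at 8 h (edgeR adjusted p = 4.4e-11 and 6.6e-05). Tatro_000302-T1 was higher by 1.96, 1.195 and 0.60 at these times (largest edgeR adjusted p = 0.0051). Tatro_000363-T1 was 6.85-fold lower at 90 min (log2 -2.78 ± 0.57, edgeR adjusted p = 0.00012) and overlapped at 4 h (-0.13 ± 0.50) and 8 h (-0.13 ± 0.50). Without MI_4h replicate 2 the 4 h value was -2.01 (edgeR adjusted p = 0.0011).

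**Figure D3:**
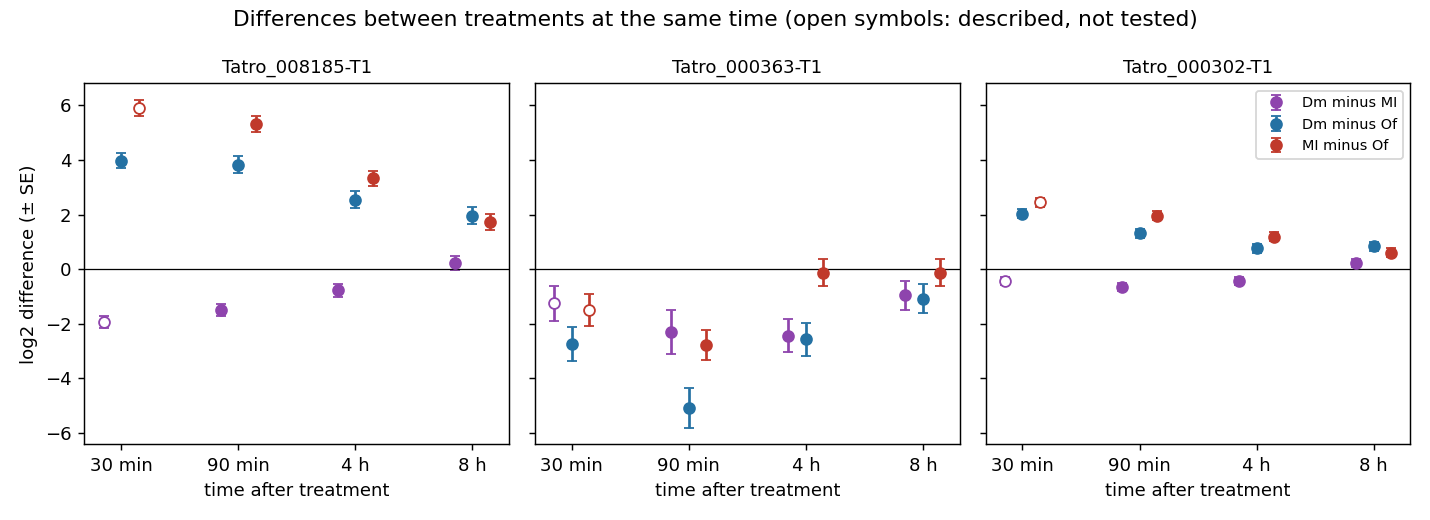
Log2 difference between treatments at the same time, with SE bars, for each of the 3 genes, with open symbols where the 30 min injury libraries enter and no test was made. Larvae minus injury lies below 0 for all 3 genes at 30 min, 90 min and 4 h, and at 8 h it is 0.23 for Tatro_008185-T1 and Tatro_000302-T1 and -0.96 for Tatro_000363-T1, none past the test.

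Along the courses, 3 of 3 members changed from 90 min to 4 h after injury (26.6% of all genes) and 2 of 3 from 4 to 8 h (12.4%). The rise of Tatro_000363-T1 from 90 min to 4 h rested on MI_4h replicate 2, as given above. It was also lost with only these groups fitted (log2 1.78, edgeR adjusted p = 0.12). Tatro_000302-T1 fell by 0.87 ± 0.14 on the log2 scale from 90 min to 4 h (edgeR adjusted p = 2.5e-05). Its fall of 0.44 ± 0.15 from 4 to 8 h (edgeR adjusted p = 0.043) was lost without any 1 of the libraries other than MI_4h replicate 3 (log2 -0.34 to -0.50) and in DESeq2 (log2 -0.42, adjusted p = 0.053). From 30 to 90 min after injury, without a test, the log2 differences were -1.58 for Tatro_008185-T1, -0.11 for Tatro_000363-T1 and -0.28 for Tatro_000302-T1.

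After the larvae 2 of 3 members changed from 30 to 90 min (19.0% of all genes) and from 90 min to 4 h (26.6%). Tatro_000302-T1 fell by 0.49 ± 0.15 (edgeR adjusted p = 0.016) and then by 0.66 ± 0.15 (edgeR adjusted p = 0.0014). The first fall was lost without the 4 libraries of lowest depth (log2 -0.35, edgeR adjusted p = 0.099) and without Dm_30min replicate 3 or Dm_90min replicate 2 or 3 (-0.41, -0.45 and -0.36). The difference from 90 min to 4 h was lost when only these groups were fitted (log2 -0.65, edgeR adjusted p = 0.064). Tatro_000363-T1 held 15.1, 6.72, 20.2 and 64.6 CPM at the 4 times and passed at no step (log2 -1.15, 1.64 and 1.80, edgeR adjusted p = 0.39, 0.16 and 0.067). The last step was 0.12 without Dm_8h replicate 3 (edgeR adjusted p = 0.95) and passed without Dm_8h replicate 1 or 2 (2.21 and 2.17) and without the 4 libraries of lowest depth (2.17, edgeR adjusted p = 0.034). The step from 90 min to 4 h passed with only its groups fitted (1.62, edgeR adjusted p = 0.0057).

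From 4 to 8 h after the larvae 0 members passed in edgeR (7.78% of all genes passed) and 0 in DESeq2. At this step 1 member had an unadjusted p under 0.05, as had 2000 of all genes. Along the collembola course, fitted with all groups, 0 members passed in edgeR or DESeq2 at any step. In edgeR 0.392%, 0% and 0.914% of all genes passed at these steps. From 30 to 90 min 2 members had an unadjusted p under 0.05, and at the later steps 0. Over all genes 980, 492 and 980 had such a p at these steps, and DESeq2 called 78, 3 and 109. From 30 to 90 min all 3 genes had groups without overlap, as had 25.7% of all genes, Tatro_008185-T1 going from 21.4 to 10.6 CPM and Tatro_000363-T1 from 98.8 to 225 CPM. With only the groups compared in the fit, both passed at this step (log2 -0.97 and 1.18, edgeR adjusted p = 0.002 and 2.3e-06), and Tatro_000363-T1 also from 90 min to 4 h (log2 -0.89, edgeR adjusted p = 0.0079). Between the controls 0 members passed in edgeR (8.41% of all genes passed) or DESeq2. Of all genes 2199 had an unadjusted p under 0.05 there, and of the members 1, Tatro_000363-T1. That gene passed when only the controls were fitted (log2 -1.22, edgeR adjusted p = 0.0069).

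Across the 14 group means of log2 CPM, Tatro_008185-T1 and Tatro_000302-T1 went together (Pearson r = 0.971, Spearman rho = 0.912), and both ran against Tatro_000363-T1 (r = -0.745 and -0.693). These are descriptions over groups that share libraries' depth and treatment, and the groups at 30 min after injury entered the choice of genes. Within groups, over the deviations of the 42 libraries from their group means, the correlations of the 3 genes were 0.301, 0.0328 and -0.134 for the same pairs.

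Of the other 2 genes with a CFEM text, Tatro_005943-T1 went with Tatro_000363-T1 (r = 0.918 over the group means). It held 37.4 ± 9.87 CPM in CT0, 9.57 ± 2.72 at 90 min after injury and 6.64 ± 1.13 at 90 min after the larvae. The falls were -2.05 ± 0.28 (edgeR adjusted p = 3.6e-07) and -2.56 ± 0.31 (6.7e-08) on the log2 scale. At 30 min after the collembola it was lower too, at 18.2 ± 5.73 CPM (log2 -1.02 ± 0.28, edgeR adjusted p = 0.015). Tatro_003494-T1 was the last of the 5 in the authors' deposited table of 30 min after injury, with a false discovery rate of 0.00484, and varied least, from 123 ± 14.01 CPM in Of_4h to 52.3 ± 19.4 CPM in Dm_8h. It fell against its control in Dm_8h by 1.14 ± 0.16 on the log2 scale (edgeR adjusted p = 5.2e-07) and by 0.40 to 0.65 in MI_90min, MI_4h, MI_8h, Dm_30min and Dm_4h.

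MI_4h replicate 2 and Dm_8h replicate 3, where Tatro_000363-T1 stood high, were also the highest of their group for Tatro_005943-T1 and Tatro_003494-T1. Tatro_005943-T1 held 13.9, 33.9 and 12.4 CPM in MI_4h and 16.0, 10.7 and 21.2 CPM in Dm_8h, with replicate 2 and replicate 3 on top. The same held for Tatro_003494-T1, at 80.9, 100.2 and 82.7 CPM in MI_4h and 36.6, 46.2 and 73.9 CPM in Dm_8h. In Dm_30min, the next widest group, replicate 2 was highest for Tatro_000363-T1 (21.6 CPM). That library was the lowest of its group for Tatro_005943-T1 (9.84 CPM) and Tatro_003494-T1 (77.5 CPM). Over the 42 deviations from group means Tatro_000363-T1 correlated with Tatro_005943-T1 at r = 0.684 and with Tatro_003494-T1 at r = 0.515. Both values include MI_4h replicate 2 and Dm_8h replicate 3. In MI_4h replicate 2 only 3 of 9193 genes lay at least 4-fold above both other libraries, Tatro_000363-T1 (275 against 21.2 and 38.9 CPM) and Tatro_003325-T1 and Tatro_010213-T1, both at 15.7 CPM and without a product text. In Dm_8h replicate 3 there were 19 such genes, of which Tatro_000363-T1 was the one with a product text. These genes were looked up after their values had been seen, and the part of anything else in those libraries was not tested.

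**Figure D4:**
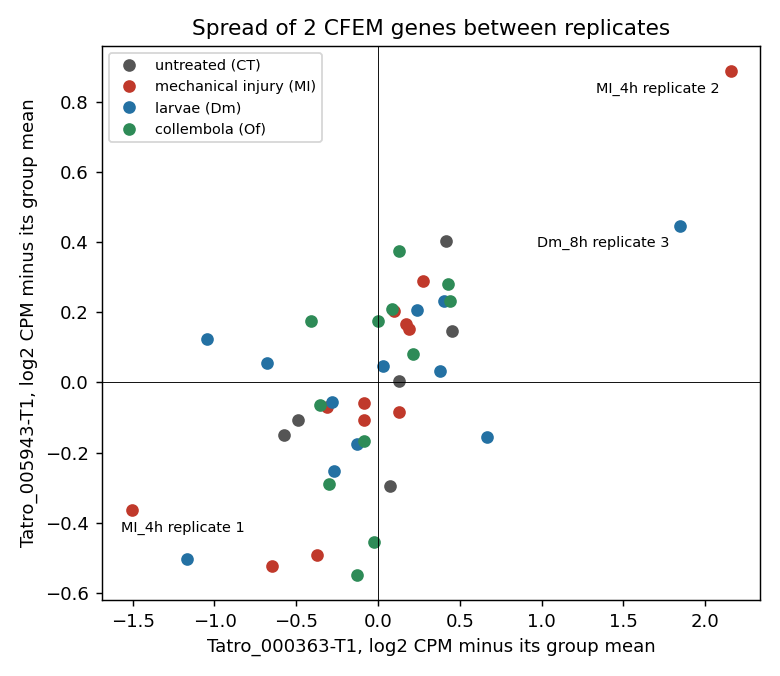
Deviation of each of the 42 libraries from its group mean, on the log2 CPM scale, for Tatro_000363-T1 (horizontal) and the other CFEM gene Tatro_005943-T1 (vertical). MI_4h replicate 2 (2.16 and 0.89) and Dm_8h replicate 3 (1.85 and 0.45) lie farthest to the upper right.

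The genes whose group means were most like those of Tatro_008185-T1 were Tatro_008005-T1, with a fungal transcription factor domain (r = 0.99), Tatro_007123-T1, a putative phosphate transporter (r = 0.978), and Tatro_008229-T1, with a double-stranded RNA-binding domain (r = 0.978). Their ranges differed, from 9.83 (CT0) to 510 CPM (MI_30min) for Tatro_008005-T1 and from 21.5 (Of_4h) to 42.9 CPM (MI_30min) for Tatro_008229-T1. Likeness in shape thus covered changes of very different size. Tatro_000302-T1 was most like Tatro_009444-T1 of the glycoside hydrolase superfamily (r = 0.984), Tatro_008185-T1 (r = 0.971) and the Rad21/Rec8-like Tatro_008824-T1 (r = 0.97). Tatro_000363-T1 was most like the alpha/beta hydrolase Tatro_003816-T1 (r = 0.949), the arabinofuranosidase-type Tatro_001556-T1 (r = 0.949) and Tatro_002031-T1, with a domain of unknown function (r = 0.945). All were chosen out of 9193 genes for the highest r over 14 group means. By Spearman's rho 1 of the 3 genes, and by Pearson's r over 42 libraries 2 of the 3, were the same for each member.

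**Figure D5:**
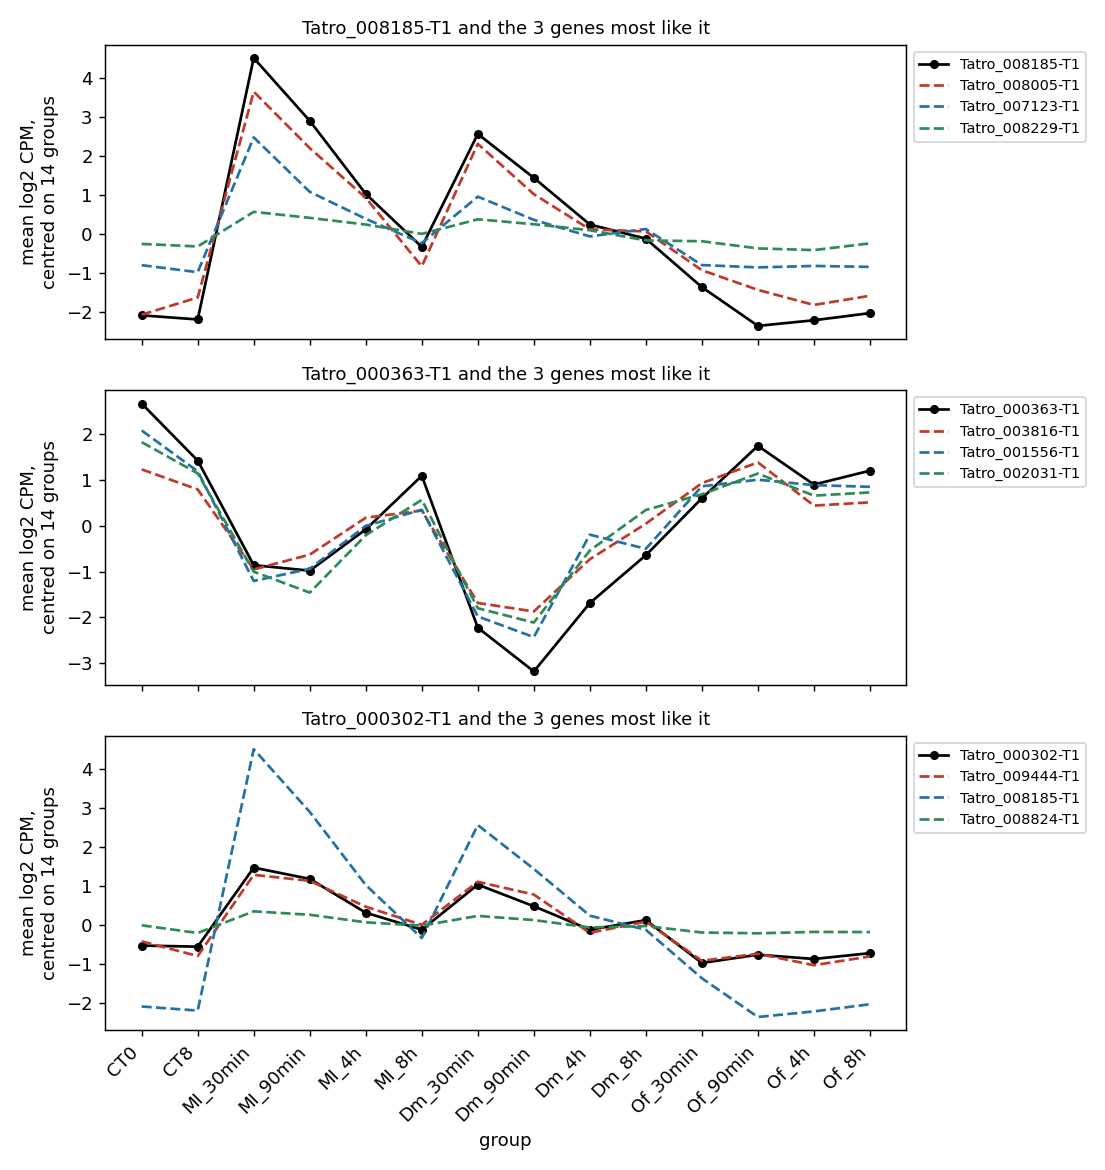
Mean log2 CPM of each member (solid black line) and of the 3 genes most like it (dashed), centred on the mean of the 14 groups. The upper and lower panels peak at MI_30min with a second, lower peak at Dm_30min, and the middle panel is lowest at Dm_90min.

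Of 12 genes within 2 ID numbers of a member, 6 passed in none of MI_90min, Dm_30min and Dm_90min against CT0, and 6 in at least 1. Over all genes 39.5%, 39.5% and 33.9% passed in these comparisons. The share of all genes that passed in none was not counted, so the neighbour count says little by itself. Among those passing in none were Tatro_008183-T1, Tatro_008184-T1 and Tatro_008186-T1 beside Tatro_008185-T1. Beside Tatro_000302-T1, Tatro_000300-T1 was lower in all 3 comparisons (log2 -0.42, -0.39 and -0.41) and Tatro_000304-T1 at 90 min after injury (log2 -0.39), against the direction of the member. Tatro_000362-T1 was lower at 90 min after the larvae (log2 -1.11). Tatro_008187-T1 has a fungal transcription factor domain and follows Tatro_008185-T1 in number. It held 5.81 CPM in CT0 and 60.1 CPM at 30 min after injury (no test), and it rose to 17.9 CPM at 90 min after injury (log2 1.97 ± 0.31, edgeR adjusted p = 3.8e-06) and 15.6 CPM at 30 min after the larvae (log2 1.73 ± 0.31, edgeR adjusted p = 3.6e-05). Tatro_000364-T1, with an AAA+ ATPase domain, and the ankyrin repeat gene Tatro_000365-T1 follow Tatro_000363-T1 in number. At 90 min after injury they fell (log2 -2.21 ± 0.37 and -3.26 ± 0.42, edgeR adjusted p = 1.1e-05 and 1.1e-07). At 90 min after the larvae Tatro_000365-T1 fell by 1.31 ± 0.35 (edgeR adjusted p = 0.004), while Tatro_000364-T1 was at 10.99 against 18.4 CPM and did not pass (edgeR adjusted p = 0.18). Whether neighbouring numbers are neighbours in the genome is not given in the sources used here.

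Other genes of the cell surface were taken from a list of words in the product text (18 genes with the 5 CFEM genes, 13 without). The texts exist only for genes selected at 30 min after injury, so the list was chosen on these samples. The share of all genes is therefore not a like background for this list. Without the CFEM genes 4 rose and 5 fell at 90 min after injury, where 39.5% of all genes passed (median log2 change -0.24, all genes -0.03). At 30 min after the larvae 5 rose and 6 fell, against 39.5% of all genes (median -0.62, all genes -0.02). At 90 min after them 5 rose and 4 fell, against 33.9% (median 0.27, all genes -0.01), and 4 and 5 with library totals. After the collembola 2 rose at 30 min and 11 did not pass (9.90% of all genes passed). With library totals as the scale, which moved the median of all genes there by -0.17, 0 rose and 1 fell. The WSC domain genes, whose domain binds wall carbohydrate, went both ways. Tatro_010674-T1 rose from 194.9 ± 34.3 to 784 ± 231 CPM at 30 min after the larvae (log2 2.03 ± 0.18, edgeR adjusted p = 2.9e-11), and Tatro_011005-T1 from 413 ± 41.5 to 1577 ± 232 CPM (log2 1.94 ± 0.18, edgeR adjusted p = 9.3e-11). Tatro_004709-T1, with the same domain, fell from 27.3 ± 3.23 to 9.09 ± 4.59 CPM (log2 -1.64 ± 0.30, edgeR adjusted p = 3.9e-05). Tatro_011005-T1 and Tatro_004709-T1 are named after their values had been seen.

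Because CFEM proteins handle haem in other fungi, genes with iron or haem words in the text were counted as well. They too have a text only because they were selected at 30 min after injury. The share of all genes is therefore not a like background for them. Of 27, of which 22 had texts that fit the theme, 10 rose and 3 fell at 90 min after injury, where 39.5% of all genes passed (median log2 change 0.24, all genes -0.03). At 30 min after the larvae 10 rose and 5 fell, against 39.5% of all genes (median 0.26, all genes -0.02), and at 90 min 7 rose and 2 fell, against 33.9% (median 0.05, all genes -0.01). With library totals as the scale these became 7 and 6 at 30 min and 5 and 5 at 90 min, where that scale moved the median of all genes by -0.13. The globin Tatro_007304-T1, a haem protein, rose from 76.1 ± 53.7 to 362 ± 102 CPM at 90 min after injury (log2 2.44 ± 0.39, edgeR adjusted p = 4.3e-06). The cytochrome b5-like Tatro_006594-T1 rose from 1.66 ± 0.62 to 22.9 ± 14.3 CPM at 90 min after the larvae (log2 3.71 ± 0.64, edgeR adjusted p = 2.4e-05).

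Genes with receptor or G protein words numbered 46, but only 22 of their texts held a receptor or G protein term, the rest naming other proteins. Most of these 22 read G-protein beta WD-40 repeat, which names a repeat and not a receptor. Of the 46, 19 rose and 10 fell at 90 min after injury, where 39.5% of all genes passed (median log2 change 0.13, all genes -0.03). In Dm_30min 23 rose and 10 fell, against 39.5% of all genes (median 0.22, all genes -0.02). At 90 min after the larvae 8 rose and 5 fell, against 33.9% (median 0.11, all genes -0.01), which turned to 4 and 9 with library totals as the scale. The rhodopsin-like receptor Tatro_010457-T1 rose from 10.9 ± 1.28 to 25.4 ± 7.92 CPM at 90 min after injury (log2 1.25 ± 0.22, edgeR adjusted p = 2.1e-05).

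The authors' deposited tables list Tatro_008185-T1 first of 3398 transcripts at 30 min after injury (log2 change 6.59), first of 2698 at 90 min (4.96) and first of 2804 at 30 min after the larvae (4.60). In the authors' deposited tables it was 4 of 798 at 4 h after injury and 89 of 858 at 8 h. After the larvae they place it 6 of 1971 at 90 min, 16 of 542 at 4 h and 128 of 1111 at 8 h. Tatro_000302-T1 is not in the authors' deposited tables for MI_8h or Dm_4h. Its small rises there passed here (edgeR adjusted p = 0.036 and 0.041). Their tables do list it for MI_30min, MI_90min, MI_4h, Dm_30min, Dm_90min and Dm_8h, higher in each. The authors' deposited tables give Tatro_000363-T1 a log2 change of -3.01 at 30 min after injury, -3.16 at 90 min, and -4.32, -5.52 and -3.82 at 30 min, 90 min and 4 h after the larvae. It is not in their tables for MI_4h, MI_8h or Dm_8h, the groups in which its difference from CT8 did not pass here. Against both controls its difference did pass here in MI_4h and Dm_8h (edgeR adjusted p = 0.03 and 0.0023), and not in MI_8h (edgeR adjusted p = 0.1). Nor is Tatro_000363-T1 in their table for Of_30min, where it passed here against CT0 and not against both controls. The authors' table for 30 min after injury listed no false discovery rate above 0.004999, a stricter limit than the threshold used here. Whether the absence of Tatro_000363-T1 from their tables came from such a limit or from the control was not tested. The control behind these tables is not named, and its log2 changes for Tatro_000363-T1 at 30 and 90 min lay nearer to those computed here against both controls than to those against CT0.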

How the data were processed

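Per the labels' protocols, total RNA was extracted with TRIzol and made into libraries with a stranded total RNA kit. Reads were handled with HISAT2 2.1.0, HTSeq 0.14.1 and FastQC 0.11.6, per the submitters' processing notes. No source used here gives the genome build, the annotation or whether counting used strand, so genes that overlap or are nearly identical are uncertain. The authors deposited raw read counts for 12018 transcript models of 11786 genes, and 1 model per gene was used since all 232 second models repeated their gene's counts. Besides the counts, 9 tables by the authors hold log2 fold changes, p-values, FDR and an F statistic, which is a score, per the file headers. Their control is not named. The column of product texts came from 1 of them. Count columns were matched to samples by name, and 0 columns were left unused. The 8 h larval columns lay nearer to the authors' 8 h larval table (mean absolute log2 difference 0.0487) than the 8 h collembola columns did (1.16).

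The counts were filtered with edgeR's default expression filter (9193 genes left, all 5 CFEM genes among them), scaled by TMM and fitted with edgeR 4.0.16 in R 4.3.3 (quasi-likelihood, 1 coefficient per group, 42 libraries). P-values were adjusted over all 9193 genes in each of 35 tested comparisons, with 4 more only described. The threshold was an adjusted p of 0.05 with no fold minimum. SE is the absolute log2 change over the square root of F, and 95% intervals use 28 residual degrees of freedom. Group means of log2 CPM used a prior count of 2. Alternatives were library totals, RLE factors, no filter, a replicate block, only the groups compared, other controls, 1 library left out, and DESeq2 1.42.0. The script was tested on simulated data. Named genes are the members, the other CFEM genes, the 3 genes most like each member, 2 ID neighbours on each side, and the members of each word list with the largest changes. The lists were surface and wall-binding, iron and haem, and receptors and G proteins. The members and lists were chosen with earlier results of these data known. The labels state independent biological replicates. Each gene's spread between replicates was estimated over all 14 groups together. A p-value therefore does not rest on the spread of the compared groups alone, except where only those were fitted.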

Additional observations from a re-analysis of the deposited data

How the results depend on the processing

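Depth limits the low values most, since Tatro_000363-T1 rested on 8 to 31 reads per library at 90 min after the larvae. Of 117 values of the 3 members, 116 kept their direction and, where tested, their side of the threshold with RLE factors, 115 with a replicate block, 114 without the filter, 112 in DESeq2, 111 with library totals, 110 without the 4 libraries of lowest depth (an alternative chosen after seeing the data) and 99 with only the groups compared, which has fewer samples and another estimate of the spread. Of 36 values against a control, 32 kept both against the mean of both controls and 26 against the other control. Except where a construction is named, the cause was not tested. Values below are log2 differences that crossed the threshold, changed sign or, untested, moved by more than the replicate spread.

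For Tatro_008185-T1, Dm_4h minus MI_4h was -0.775 with only the groups compared and -0.746 in DESeq2, MI_30min minus Of_30min 6.068 with library totals, Dm_8h minus Dm_4h -0.795 and Dm_8h minus MI_8h -0.167 without the shallow libraries, Of_8h -0.0591 against the other control, and Of_90min minus Of_30min -0.970 with only the groups compared. The change of Dm minus Of from 90 min to 4 h was -1.299 without the filter and -1.29 in DESeq2.

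For Tatro_000363-T1, the other control gave -2.369 (MI_30min), -1.932 (MI_4h), -1.609 (MI_8h), -2.567 (Dm_8h), -0.877 (Of_30min), 0.299 (Of_90min) and -1.806 (Of_4h), and both controls gave -2.983 (MI_30min), -1.317 (MI_4h), -1.952 (Dm_8h) and -1.492 (Of_30min). With only the groups compared it was -0.934 (Of_90min against CT0), -0.605 (Of_4h against CT8), -2.297 (Dm_90min minus MI_90min), -2.432 (Dm_4h minus MI_4h), 1.776 (MI_4h minus MI_90min), 1.617 (Dm_4h minus Dm_90min), 1.181 (Of_90min minus Of_30min), -0.893 (Of_4h minus Of_90min) and -1.218 (CT8 minus CT0). Changes of Dm minus Of there were -2.357 (30 to 90 min) and 2.509 (90 min to 4 h, 2.454 in DESeq2). Dm_90min minus MI_90min was -2.359 with library totals and -2.299 in DESeq2, and Dm_8h minus Dm_4h 2.17 without the shallow libraries.

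For Tatro_000302-T1, the other control gave 0.384 (MI_8h) and 0.388 (Dm_4h). Dm_4h against CT8 was 0.425 with library totals and 0.425 without the filter. Library totals gave -0.649 (Of_30min against CT0), 2.624 (MI_30min minus Of_30min) and -0.379 (MI_8h minus MI_4h), which was -0.420 with RLE factors, -0.426 without the filter and -0.420 in DESeq2. With only the groups compared it was -0.492 (Of_30min against CT0), -0.332 (Of_4h against CT8), -0.658 (Dm_90min minus MI_90min), -0.510 (Dm_90min minus Dm_30min) and -0.648 (Dm_4h minus Dm_90min). Without the shallow libraries it was -0.450 (Dm_4h minus MI_4h), -0.347 (Dm_90min minus Dm_30min) and -0.726 and -0.0467 (the changes of Dm minus Of from 90 min to 4 h and from 4 to 8 h).

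With the replicate number as a block, Dm_8h against CT8 passed for Tatro_000363-T1 (-1.498) and MI_8h minus MI_4h did not for Tatro_000302-T1 (-0.440), and no other call changed. No pairing of the samples by number was seen, though groups of 3 libraries cannot exclude it. Same-numbered libraries deviated with correlations of -0.21 to 0.155 (median 0.0102) over 34 pairs of groups, 0 of them with all 3 above 0.1, and 12 of 42 libraries went best with their own number.

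Leaving out 1 library at a time changed a call or sign for 31 values. For Tatro_008185-T1 the ranges were -1.186 to -0.492 (Dm_4h minus MI_4h), 0.604 to 1.419 (change of Dm minus MI from 4 to 8 h), -1.695 to -1.03 (change of Dm minus Of from 90 min to 4 h), -0.280 to 0.0220 (from 30 to 90 min), -0.179 to 0.112 (Of_4h against CT8), -0.170 to 0.437 (Dm_8h minus MI_8h) and -0.791 to 0.0238 (Dm_8h minus Dm_4h). For Tatro_000363-T1 they were -2.603 to -0.206 (MI_4h against CT8), -3.021 to -0.944 (Dm_8h against CT8), -2.926 to -0.544 (Dm_4h minus MI_4h), -2.64 to -0.574 (Dm_8h minus MI_8h), -2.765 to -0.695 (Dm_8h minus Of_8h), -2.013 to 0.370 (MI_4h minus Of_4h), -0.273 to 0.0895 (MI_90min minus MI_30min), -0.117 to 2.26 (MI_4h minus MI_90min), -0.169 to 2.232 (MI_8h minus MI_4h), 0.116 to 2.205 (Dm_8h minus Dm_4h), -0.292 to 0.121 (MI_8h minus Of_8h), -0.628 to 1.75 and -0.411 to 1.971 (changes of Dm minus MI from 90 min to 4 h and from 4 to 8 h) and -0.206 to 1.861 (change of Dm minus Of from 4 to 8 h). For Tatro_000302-T1 they were 0.382 to 0.530 (MI_8h against CT8), 0.281 to 0.546 (Dm_4h against CT8), -0.590 to -0.344 (Dm_4h minus MI_4h), -0.553 to -0.336 (MI_8h minus MI_4h), -0.728 to -0.356 (Dm_90min minus Dm_30min), 0.533 to 0.823 (change of Dm minus MI from 4 to 8 h), -0.959 to -0.565 (change of Dm minus Of from 30 to 90 min), -0.719 to -0.334 (from 90 min to 4 h), -0.0602 to 0.230 (from 4 to 8 h) and -0.156 to 0.113 (CT8 minus CT0). Of the 3 genes most like each member, Spearman's rho kept 1.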
